A study of Mus musculus with 47 samples.

Results

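The comparison is that of AireEEDdKO with Ctrl medullary thymic epithelial cells of the mTEClo gate in newborn mice, over all genes. It rests on 6 of the 47 libraries of the series, 3 from each genotype, chosen by their labels for cell type, age class and genotype. AireEEDdKO mice carried a germline loss of Aire, on a C57BL/6 background, together with floxed EED alleles deleted by Foxn1-Cre, which is active in thymic epithelium, so EED was targeted in the epithelium and Aire in the whole mouse. The labels do not define the genotype behind "Ctrl" further. The Ctrl libraries came from female mice of 2~3 days (replicate 1), from male mice of 2~3 days (replicate 2) and from pooled male and female mice of 1 day (replicate 3). The AireEEDdKO libraries came from females of 4 days (replicate 1), males of 6 days (replicate 2) and males of 4 days (replicate 3). Age and genotype therefore do not overlap, and within these 6 libraries they cannot be told apart. The 5 libraries without a bracketed name in their title are the 3 of AireEEDdKO mTEClo and the 4-day and 6-day libraries of EEDcKO mTEClo, while the other 19 neonatal libraries carry one, Ctrl among them. Nothing used here says whether these 5 were prepared or sequenced apart, so the set of libraries, like age, cannot be told apart from genotype. Cells were sorted as DAPI-, CD45-, EpCAM+ and Ly51- with low MHC class II, and bulk cDNA was made with the RamDA-seq chemistry, which primes RNA with random and oligo-dT primers. The same gate from EEDcKO mice, with EED deleted and Aire intact, is set beside it in 4 libraries (2~3 days pooled, 1 day pooled, 6 days female and 4 days pooled, where pooled means male and female mice). The neonatal mTEChi gate, with high MHC class II, is used in 3 libraries of AireEEDdKO (4 to 6 days) and 5 of Ctrl (1 to 6 days). It is also used in 3 of AireKO (4 to 6 days) and 3 of EEDcKO (1 to 6 days). The Ctrl ones came from females, males and pools, the EEDcKO ones from females and pools, and the others from males and pools. Adult mTEChi is used for a single gene set, in 4 libraries of AireKO (5 to 6 weeks, all male) and 7 of WT (4 to 5 weeks, male and female). No mTEClo library of AireKO neonates was analysed here.

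Medullary thymic epithelial cells display genes of other tissues to developing T cells. Cells with low MHC class II include immature epithelium and part of the mimetic cells, which resemble muscle, tuft, gut, skin or secretory cells, whereas Aire is best known from the mature cells with high MHC class II, where it raises the expression of many tissue-restricted genes. EED is a core subunit of the Polycomb repressive complex PRC2, which trimethylates histone H3 at lysine 27. The mark keeps developmental regulators silent, Hox genes and the Cdkn2a locus among them, and EED binds the mark and is needed for the catalytic subunits Ezh1 and Ezh2 to work.

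The 6 libraries held 1805331 to 4817418 gene counts each, and the shallowest was Ctrl replicate 3. Levels are given as CPM, read counts relative to the total of the library, scaled with TMM factors and not corrected for gene length, in the order of replicates 1, 2 and 3. Libraries of the same genotype correlated across genes with r from 0.954 to 0.976 on the log2 CPM scale, and libraries of different genotypes with r from 0.88 to 0.899. These are correlations across genes, which are not independent replicates. Markers of epithelium and of other cells were read in the 6 libraries, which does not test the MHC class II limit of the gate. The class II gene H2-Aa averaged 524 CPM in Ctrl mTEClo and 596 CPM in Ctrl mTEChi, and Aire 325 and 613 CPM. The epithelial marker Epcam lay at 218.5 to 239.4 CPM in Ctrl and 177.9 to 201.2 CPM in AireEEDdKO. The pan-leukocyte gene Ptprc stayed below 9.05 CPM and the globin gene Hbb-bs below 1.05 CPM in all 6 libraries. Other markers of non-epithelial cells were not that low. Lyz2 was at 60.8 to 101.2 CPM in Ctrl and 27.6 to 163.6 CPM in AireEEDdKO. Pdgfrb was at 18.4 to 44.9 and 12.4 to 33.2 CPM, and Pecam1 at 13.4 to 18.4 and 3.66 to 5.63 CPM. The mesenchymal receptor Pdgfra was at 1.67 to 3.35 CPM in Ctrl and 19.1 to 51.3 CPM in AireEEDdKO, and the collagen genes, given with the mesenchyme list, moved with it.

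Aire, the transcriptional regulator removed from the germline, was measured at 322, 324 and 329.8 CPM in the Ctrl libraries and at 16.3, 10.8 and 3.44 CPM in the AireEEDdKO libraries. All 3 AireEEDdKO libraries lay far below all Ctrl libraries, with a log2 fold change of -5.04 ± 0.56 (SE, n = 3 and 3; adjusted p = 7.4e-07, edgeR quasi-likelihood F-test, Benjamini-Hochberg adjusted over 20196 genes). Aire shares exons with Dnmt3l, and counting took no account of strand, so reads of the overlap cannot be assigned. In the EEDcKO libraries, which carry intact Aire, the level was 123, 232, 309 and 60.1 CPM. Eed itself was measured at 23.1, 23.3 and 25.7 CPM in Ctrl and 15.3, 14.9 and 14.9 CPM in AireEEDdKO, without overlap (log2 fold change -0.67 ± 0.23, adjusted p = 0.026). This difference passed the adjusted p but not the 2-fold limit. The table counts whole genes and cannot show the floxed exons alone. Ezh2, the catalytic partner, was at 63.0, 53.2 and 63.1 against 31.9, 44.0 and 43.2 CPM (log2 fold change -0.58 ± 0.17, adjusted p = 0.0094).

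A gene was called when its adjusted p was under 0.05 and it differed at least 2-fold. Of 20196 tested genes, 4152 (20.6%) were called, 2496 higher (12.4%) and 1656 lower (8.2%) in AireEEDdKO. List counts for AireEEDdKO against Ctrl mTEClo are to be read beside these shares. Changes of 8-fold or more were held by 206 called genes in the upward and 401 in the downward direction. All 3 libraries of each genotype stood apart without overlap for 3913 of the 4152 called genes (94.2%), and for 10472 of all tested genes (51.9%). Leaving out each of the 6 libraries in turn gave 3553 to 4034 called genes. With age in days as an additional term, which takes its age slope largely from other neonatal groups, 4215 genes were called and 3566 of the 4152 (85.9%) were among them. Within the EEDcKO mTEClo libraries, those of 4 and 6 days differed from those of 1 to 3 days in 609 genes (3.02%). Of the 2496 genes higher in AireEEDdKO, 180 (7.21%) were also higher in the older EEDcKO libraries, which is 45.3% of the 397 that were (1.97%). Of the 1656 lower genes, 66 (3.99%) were also lower there, 31.1% of the 212 that were (1.05%).

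The EEDcKO libraries occur with both forms of title, and a fit with the title form as an additional term, chosen after seeing the data, was made on that basis. It takes the shift between title forms from 2 EEDcKO libraries against the other 2, which is also the split between 4 to 6 days and 1 to 3 days. With it 1787 genes were called (1097 higher, 690 lower), and 1316 of the 4152 (31.7%) were among them. Of the lists described here, 29 developmental transcription factors were then higher and 2 lower, 4 Hox, 18 imprinted and 6 muscle genes were higher, and 30 interferon-stimulated genes, 14 cell division genes, 4 enterocyte, 5 keratinocyte and 1 goblet gene were lower. Of collagen genes 12 were higher and 1 lower, of mesenchyme markers 5 and 1, and of cortical epithelial genes 1 and 1. Of 123 genes met by the naming rule, 45 were no longer called, among them Cdkn2b, Krt14, Hoxc4, Psmb11, Prss16, Pkhd1l1, Apob, Muc5b and Pdgfra, and 3 of these changed direction (Fezf2, Slc4a9 and Erg). Aire, Zfhx4, Cdkn2a, Meg3, Col1a2, Myog, Kif11, Rsad2 and Ifit1 were still called. AireEEDdKO against the EEDcKO libraries of 4 and 6 days, which share the title form, had 433 called genes (2.14%), and EEDcKO of 1 to 3 days against Ctrl had 2549 (12.6%).

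**Figure D1:**
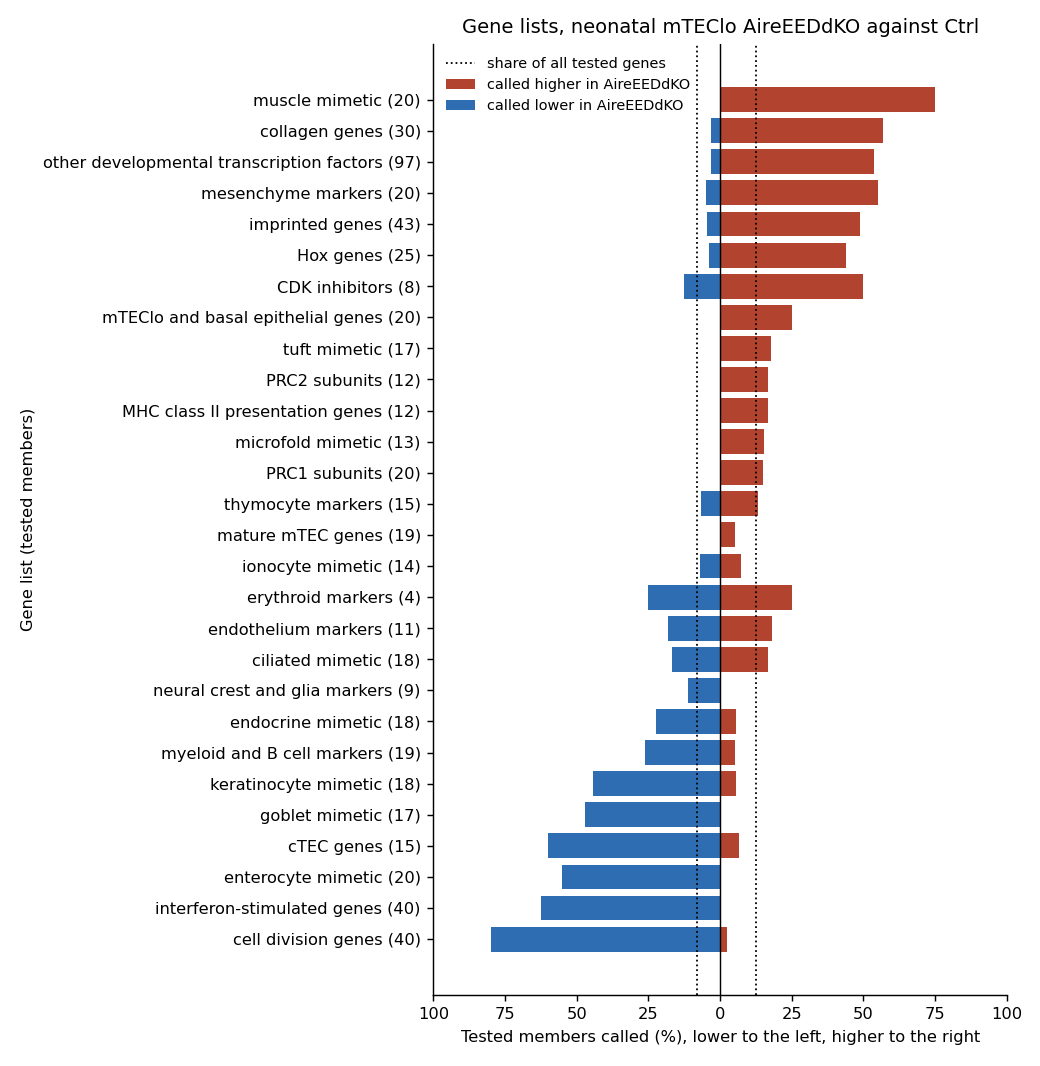
Share of the tested members of 28 gene lists (percent, horizontal axis) called higher or lower in AireEEDdKO than in Ctrl mTEClo, with dotted lines at the shares over all tested genes (12.4% higher, 8.2% lower). Muscle mimetic genes and developmental transcription factors stand out on the higher side (75.0% and 53.6%), and cell division and interferon-stimulated genes on the lower side (80.0% and 62.5%).

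Developmental transcription factors, which specify cell identities in the embryo and are classical Polycomb targets, rose. Of 97 tested factors outside the Hox clusters, 52 were called higher and 3 lower (53.6% and 3.09%, against 12.4% and 8.2% of all tested genes), with a median log2 fold change of 1.45 against -0.01 over all genes. The 3 lower were Tbx20 (-3.49), Pax7 (-3.46) and Hand1 (-3.37). Zfhx4, a large zinc finger and homeobox protein, was at 5.70, 7.30 and 4.46 CPM in Ctrl and at 133, 132 and 137 CPM in AireEEDdKO. The AireEEDdKO libraries were nearly level with each other and far above Ctrl, and the log2 fold change was 4.48 ± 0.21 (adjusted p = 1.9e-12). EEDcKO libraries held 218, 184, 176 and 164 CPM, so the rise was also present with Aire intact (log2 fold change 4.95 ± 0.21, adjusted p = 1.4e-13).

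Pax3, a paired-box factor of neural crest and muscle precursors, was at 1.68, 0.696 and 1.67 CPM in Ctrl and 28.2, 25.9 and 12.9 CPM in AireEEDdKO (log2 fold change 4.04 ± 0.53, adjusted p = 5.6e-06). Gata6, an endoderm regulator, was at 0.335, 0.696 and 0.558 against 8.76, 13.2 and 22.7 CPM (log2 fold change 4.74 ± 0.49, adjusted p = 3.5e-07). Neither gene overlapped between genotypes, which the naming rule required of Pax3 as one of the largest rises. Osr2, a zinc finger regulator of palate and limb development, was almost silent in Ctrl, with 2 counts over the 3 libraries, against 161 counts in AireEEDdKO. The ratio of rates was 49.4 (95% exact interval 13.5 to 412, which covers counting error only). Neurod1, an endocrine and neuronal factor, had 1 count in Ctrl and 166 in AireEEDdKO (ratio 102, interval 18.0 to 4050), and it was uneven, at 31.3, 2.44 and 12.4 CPM.

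Ebf3, a helix-loop-helix factor of neurons and mesenchyme, was at 4.02, 5.22 and 2.23 CPM in Ctrl and 41.0, 17.3 and 70.0 CPM in AireEEDdKO, all 3 above Ctrl but uneven (log2 fold change 3.40 ± 0.43, adjusted p = 4.0e-06). It stood higher still in EEDcKO, at 131, 104, 93.1 and 106 CPM, and the difference between the genotypes lacking EED was -1.34 ± 0.31 on the log2 scale (adjusted p = 0.0094). Polycomb targets in mammals are known for promoters rich in CG dinucleotides, and the Ebf3 start region is shown as an example, with every CG in capitals (RefSeq, GRCm38.p6, chr7:137314396-137314695, minus strand, 250 bases before to 50 after the start). It holds 46 CG dinucleotides, and 1.65% of all promoters in the same reference table hold as many or more.
Ebf3: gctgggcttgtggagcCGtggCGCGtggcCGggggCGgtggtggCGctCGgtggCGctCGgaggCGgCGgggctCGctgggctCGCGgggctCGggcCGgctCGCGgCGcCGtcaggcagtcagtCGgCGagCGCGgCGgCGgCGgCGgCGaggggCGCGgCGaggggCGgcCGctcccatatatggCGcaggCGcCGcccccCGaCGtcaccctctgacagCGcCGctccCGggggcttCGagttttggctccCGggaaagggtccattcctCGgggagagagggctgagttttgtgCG

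Hox genes, the clustered homeobox genes that pattern the body axis, shared the direction. Of 25 Hox genes that passed the filter on low counts, of 39 in the list, 11 were higher (44.0%) and 1 lower (Hoxb13, -2.21), with a median log2 fold change of 1.55. The count rested on few reads and on the libraries used. It was 7 to 10 when a library was left out, with 7 without Ctrl replicate 3, 4 when only the groups compared were fitted, and 6 when at least 10 counts were required in every library of a group. Hoxc4 lay at 1.00, 1.39 and 0.558 CPM in Ctrl and 11.6, 12 and 6.66 CPM in AireEEDdKO (log2 fold change 3.23 ± 0.52, adjusted p = 4.9e-05), and its neighbour Hoxc6 at 1.34, 2.44 and 0 against 13.1, 15.5 and 5.28 CPM (2.97 ± 0.59, adjusted p = 4.3e-04). Hoxc5 was at 3.02, 1.39 and 0 against 12.2, 13.4 and 4.59 CPM (2.58 ± 0.56, adjusted p = 0.001), and its exons overlap those of Hoxc10. For all of these the lowest AireEEDdKO library stood above the highest Ctrl library. In EEDcKO against Ctrl, which shares the Ctrl libraries, 15 Hox genes were higher and 0 lower (background 9.51% higher, 6.22% lower), and 48 of the 97 other factors were higher and 4 lower.

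Among inhibitors of cyclin-dependent kinases, which hold cells back from division, 4 of 8 rose and Cdkn3, a phosphatase listed with them that itself cycles with division, fell (-1.42). The shares were 50.0% higher and 12.5% lower, against 12.4% and 8.2% of all tested genes. Cdkn2a, which encodes p16 and p19ARF and is a long-known Polycomb target, was measured at 2.35, 0.696 and 0.558 CPM in Ctrl and 17.5, 14.3 and 14.2 CPM in AireEEDdKO (log2 fold change 3.53 ± 0.45, adjusted p = 3.6e-06). Its neighbour Cdkn2b was at 11.7, 14.3 and 10.0 against 42.9, 37.7 and 30.5 CPM (1.60 ± 0.26, adjusted p = 6.8e-05). Both were separated without overlap. Cdkn1c rose by 2.35 ± 0.30 and Cdkn1a by 1.60 ± 0.22 on the log2 scale, and EEDcKO held all 4 higher than Ctrl as well, at log2 fold changes of 3.43, 1.14, 1.70 and 1.30.

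Imprinted genes, expressed from the allele of a single parent, moved largely upward, with 21 of 43 higher and 2 lower. These were 48.8% and 4.65%, against 12.4% and 8.2% of all tested genes. The long noncoding RNA Meg3 was at 30.2, 40.0 and 32.9 CPM in Ctrl and 472, 234 and 419 CPM in AireEEDdKO (log2 fold change 3.44 ± 0.32, adjusted p = 1.0e-07). From the same locus on chromosome 12, Mirg, a host transcript of microRNAs, was at 2.35, 4.87 and 2.23 against 61.9, 29.9 and 68.0 CPM (4.02 ± 0.47) and Dlk1, an inhibitory Notch ligand, at 12.4, 11.8 and 16.7 against 198, 109 and 179 CPM (3.59 ± 0.46). In all 3 genes the second AireEEDdKO library was the lowest of its group and still stood above Ctrl. For Mirg, among the largest rises, the naming rule required this lack of overlap. The growth factor gene Igf2 was at 2.01, 2.44 and 4.46 against 46.0, 19.7 and 59.0 CPM (3.87 ± 0.59, adjusted p = 2.7e-05), and the file's annotation overlaps its exons with Igf2os. Kcnk9, a potassium channel gene chosen for mention after its values were seen, went the other way. It had 32, 25 and 14 counts in Ctrl and 0 in all AireEEDdKO and all 4 EEDcKO libraries, at least 37.7-fold lower in AireEEDdKO (floor of 3 counts over the group, adjusted p = 3.1e-05).

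Polycomb subunits themselves changed little in number. Of 12 PRC2 genes, 2 were higher and 0 lower (16.7% higher, near the 12.4% of all tested genes). Epop, an accessory PRC2 subunit, was at 1.00, 1.74 and 0.558 CPM in Ctrl and 16.3, 17.1 and 14.7 CPM in AireEEDdKO (log2 fold change 3.74 ± 0.54, adjusted p = 1.7e-05), and Phf1, which helps PRC2 to bind chromatin, at 3.69, 1.74 and 5.02 against 10.3, 13.2 and 13.8 CPM (1.89 ± 0.32, with exon overlap with Cuta). Of 20 PRC1 genes, 3 were higher and 0 lower (15.0% higher, also near the share of all tested genes). Bmi1, a core subunit of PRC1, was at 18.1, 16.0 and 18.4 against 68.8, 59.9 and 67.7 CPM, and EEDcKO was at 60.8, 70.6, 64.5 and 68.3 CPM, the same range as AireEEDdKO (log2 fold change against Ctrl 1.9 ± 0.20 in AireEEDdKO, adjusted p = 4.8e-07). Cbx8, which reads the methyl mark, rose by 1.38 ± 0.29 and the ubiquitin ligase subunit Ring1 by 1.18 ± 0.17.

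**Figure D2:**
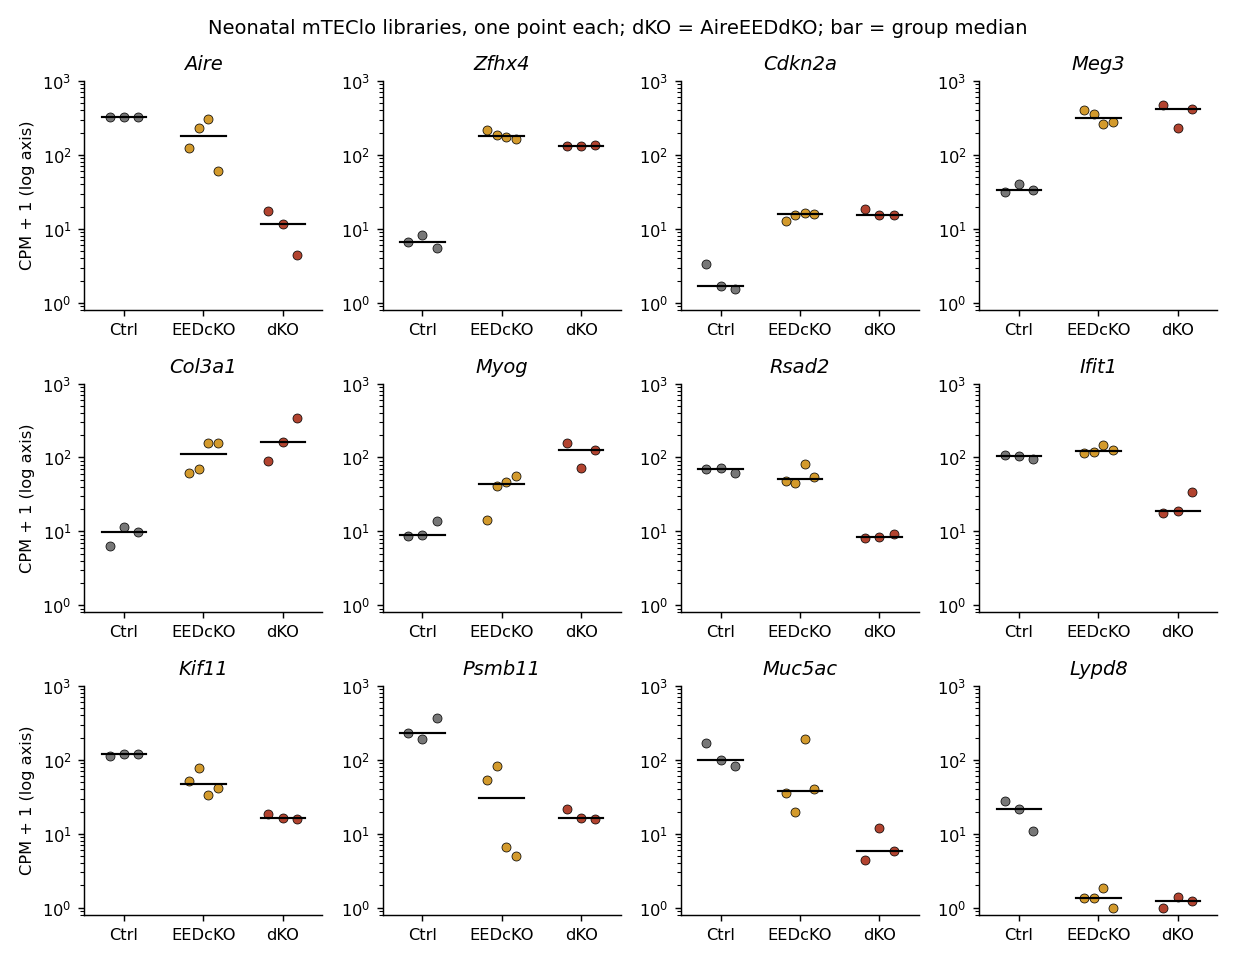
Level of 12 genes in every library (CPM + 1, log axis) for Ctrl (3), EEDcKO (4) and AireEEDdKO (3) mTEClo, 1 point per library with a bar at the group's median. Zfhx4, Cdkn2a and Meg3 are high in both groups without EED, Rsad2 and Ifit1 are low in AireEEDdKO only among these 3 groups, and Psmb11 is lower in the older pair of EEDcKO libraries than in the younger pair.

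Collagen genes, which encode the fibrous scaffold outside cells, rose together with part of a mesenchyme marker list. Of 30 collagen genes 17 were higher and 1 lower (56.7% and 3.33%). Col3a1, a fibrillar collagen, was at 5.36, 10.4 and 8.93 CPM in Ctrl and 89.5, 159 and 337 CPM in AireEEDdKO (log2 fold change 4.58 ± 0.59, adjusted p = 4.2e-06), and Col1a2 at 10.4, 7.30 and 10.6 against 120.5, 159 and 202 CPM (4.10 ± 0.31, adjusted p = 1.4e-08). The genotypes did not overlap in either gene, which the naming rule requires of the largest rises, both of these among them. Col3a1 was uneven among the AireEEDdKO libraries. The rise was not limited to fibrillar collagens of mesenchyme. Col7a1, which forms the anchoring fibrils of skin epithelium, was at 16.8, 33.7 and 31.2 against 319.8, 288 and 377 CPM (3.60 ± 0.34, adjusted p = 1.2e-07). Col17a1, a hemidesmosome protein of basal epithelium, was at 55.6, 53.6 and 45.2 against 209.9, 198 and 233 CPM (2.05 ± 0.18). Col5a2 rose by 2.83 ± 0.31 and Col6a3 by 1.65 ± 0.43, while Col13a1 was the collagen that fell (-2.64). EEDcKO against Ctrl had 15 collagen genes higher and 0 lower.

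Of 20 mesenchyme markers 11 were higher and 1, Ly6c1 (-3.08), was lower (55.0% and 5.0%, against 12.4% and 8.2% of all tested genes). Cspg4, a pericyte proteoglycan, was at 16.1, 16.7 and 11.2 CPM in Ctrl and 170.2, 137 and 95.1 CPM in AireEEDdKO (3.16 ± 0.29, adjusted p = 8.3e-08). Lum, a small proteoglycan of collagen matrix, was at 5.03, 3.83 and 4.46 against 30.3, 38.3 and 51.9 CPM (3.17 ± 0.36), and Pdgfra at 3.35, 1.74 and 1.67 against 19.1, 51.3 and 23.9 CPM (3.74 ± 0.72). Other markers of the list gave no such difference, with log2 values of -0.88 for Fn1, -0.39 for Vim and -0.62 for Pdgfrb. The summed level of the 20 markers was 2342 to 2718 CPM in Ctrl and 2689 to 2890 CPM in AireEEDdKO, and that of the 30 collagen genes was 2170 to 2662 CPM in Ctrl and 4617 to 5505 CPM in AireEEDdKO. Whether other cells in the gate had a part in the rise of the collagen genes was not tested. As in any bulk sample, fewer or more cells of a type and less or more RNA per cell cannot be told apart here.

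Muscle genes rose against both Ctrl and EEDcKO. Thymic muscle-like mimetic cells express the myogenic program, and of 20 such genes 15 were higher and 0 lower in AireEEDdKO than in Ctrl, with a median log2 fold change of 2.06. Myog, the transcription factor of muscle differentiation, was at 7.71, 8.0 and 12.8 CPM in Ctrl, 156, 70.4 and 125 CPM in AireEEDdKO and 13.0, 40.6, 45.5 and 54.8 CPM in EEDcKO. The lowest AireEEDdKO library exceeded every Ctrl and EEDcKO library. The log2 fold change was 3.66 ± 0.46 against Ctrl (adjusted p = 3.7e-06) and 1.59 ± 0.36 against EEDcKO (adjusted p = 0.0076). Ryr1, the calcium release channel of skeletal muscle, was at 25.5, 24 and 24 CPM in Ctrl and 270.0, 136 and 270.5 CPM in AireEEDdKO (3.20 ± 0.46). Skeletal actin Acta1 was at 2.68, 8.35 and 13.4 against 143, 34.6 and 79.9 CPM (3.47 ± 0.70) and cardiac actin Actc1 at 18.4, 8.0 and 29.0 against 153, 82.2 and 182 CPM (2.96 ± 0.60). The second AireEEDdKO library was the lowest of its group for Myog, Ryr1 and both actins, and none of them overlapped with Ctrl. Mymx, a fusion protein of myoblasts outside the list and among the largest rises, was at 1.00, 2.44 and 2.23 against 45.4, 13.8 and 29.2 CPM (3.96 ± 0.57).

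EEDcKO against Ctrl had 4 muscle genes higher and 3 lower with a median of 0.31, and AireEEDdKO against EEDcKO had 14 higher and 0 lower with a median of 1.73 (background 3.45% higher and 1.85% lower). Against the EEDcKO libraries of 4 and 6 days alone, 5 were higher and 0 lower (background 2.14% in all, 1.23% higher and 0.916% lower) with a median of 1.78. Leaving out a library gave 12 to 15 higher against Ctrl, with 12 without Ctrl replicate 1. The comparison with EEDcKO as a whole was unsteady. It held 1071 called genes (5.3%; 697 higher, 374 lower) but 377 when AireEEDdKO replicate 1 was left out and 539 when replicate 2 was. Leaving out replicate 1 of EEDcKO gave 705, leaving out its replicate 3 gave 1506, and leaving out AireEEDdKO replicate 3 gave 1507. It shares the AireEEDdKO libraries with the comparison with Ctrl.

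Interferon-stimulated genes, the antiviral and antigen-processing program that thymic epithelium also keeps on at rest, fell. Of 40 genes 25 were lower and 0 higher (62.5% lower), with a median log2 fold change of -1.21, and every alternative fit gave 24 to 26, except 30 with the title form as a term. Their summed level was 4037 to 4084 CPM in Ctrl and 1956 to 2263 CPM in AireEEDdKO. Rsad2, which encodes viperin, was at 69.3, 69.9 and 59.7 CPM in Ctrl, 7.20, 7.33 and 8.27 CPM in AireEEDdKO and 47.1, 44.5, 79.5 and 53.1 CPM in EEDcKO. The AireEEDdKO libraries lay below all others, and EEDcKO straddled Ctrl (log2 fold change -3.12 ± 0.27 against Ctrl, adjusted p = 3.0e-08, and -2.88 ± 0.25 against EEDcKO, adjusted p = 1.2e-06). Ifit2, which binds viral RNA, was at 62.0, 66.1 and 43.5 CPM in Ctrl and 4.69, 3.87 and 6.89 CPM in AireEEDdKO (-3.47 ± 0.39), and its relative Ifit3 at 46.9, 42.8 and 39.6 against 4.38, 2.24 and 10.8 CPM (-2.89 ± 0.48). Ifit3 and Ifit3b are near-identical copies that may share reads. Ifi44 was at 165, 147 and 169.6 against 25.3, 22.0 and 46.8 CPM (-2.35 ± 0.34). No library of these genes crossed between the genotypes.

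Interferon-stimulated genes were lower than in EEDcKO as well, 30 of the 40 with 0 higher (median -1.42), while EEDcKO against Ctrl had 2 higher and 0 lower (median 0.22). Against EEDcKO libraries of 4 and 6 days, 32 were lower and 0 higher (median -1.69), and within EEDcKO the older libraries had 4 higher and 0 lower than the younger (median 0.54). Ifit1 was at 108, 103 and 93.2 CPM in Ctrl, 16.6, 17.9 and 33.5 CPM in AireEEDdKO and 114, 118, 147 and 123 CPM in EEDcKO (against EEDcKO -2.46 ± 0.28, adjusted p = 3.3e-05). Oasl2, of the oligoadenylate synthetase family, was at 409, 489.8 and 517, 157, 162 and 189 and 446, 431, 498 and 476 CPM in the same order of groups (against EEDcKO -1.45 ± 0.15, adjusted p = 9.7e-06). Oas1b was at 18.4, 25.7 and 21.2, 10.6, 12.6 and 14.7 and 43.7, 46.3, 52.5 and 46.6 CPM, with EEDcKO above Ctrl and AireEEDdKO below it. In mTEChi, AireEEDdKO against Ctrl had 22 lower and 2 higher (55.0% and 5.0%, background 9.94% and 6.88%).

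Interferon-stimulated genes are known to be switched on through an element called ISRE. A pair of GAAA letters with 2 bases between them was searched on both strands of RefSeq promoters (GRCm38.p6, 250 bases before to 50 after the start). Of the 40 genes 29 have an entry (72.5%), too few to speak for the list, and 17 of these 29 hold a match, as do 3.44% of all promoters in the table. A match is a description of letters, not of binding. Start regions of Rsad2 (chr12:26456403-26456702, minus strand), Ifit1 (chr19:34640639-34640938, plus strand) and Ifit3 (chr19:34583279-34583578, plus strand) are shown with matches in capitals, as examples among the named genes of the list. The match lies 120 bases before the start in Rsad2, 104 and 85 bases before it in Ifit1 and 156 and 122 bases before it in Ifit3.
Rsad2: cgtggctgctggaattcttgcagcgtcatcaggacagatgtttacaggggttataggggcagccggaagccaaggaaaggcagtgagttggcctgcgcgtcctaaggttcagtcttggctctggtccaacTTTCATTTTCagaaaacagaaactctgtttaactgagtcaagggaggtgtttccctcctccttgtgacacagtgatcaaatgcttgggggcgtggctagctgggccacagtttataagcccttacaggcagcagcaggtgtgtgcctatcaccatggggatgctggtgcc
Ifit1: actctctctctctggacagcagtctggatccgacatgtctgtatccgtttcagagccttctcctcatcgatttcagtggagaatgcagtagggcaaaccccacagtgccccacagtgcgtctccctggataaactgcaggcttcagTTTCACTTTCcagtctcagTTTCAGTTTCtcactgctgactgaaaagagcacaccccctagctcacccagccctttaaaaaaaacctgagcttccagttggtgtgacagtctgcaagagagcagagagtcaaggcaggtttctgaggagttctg
Ifit3: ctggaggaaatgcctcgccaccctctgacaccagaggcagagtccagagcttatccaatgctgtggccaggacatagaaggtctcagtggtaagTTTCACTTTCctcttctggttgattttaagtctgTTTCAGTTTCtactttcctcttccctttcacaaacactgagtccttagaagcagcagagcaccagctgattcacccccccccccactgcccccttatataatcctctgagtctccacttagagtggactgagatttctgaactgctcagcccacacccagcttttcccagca

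Cell division genes fell as a block. Of 40 genes 32 were lower (80.0%) and 1 higher, with a median log2 fold change of -1.53 and a summed level of 3679 to 3962 CPM in Ctrl and 1308 to 1331 CPM in AireEEDdKO. The gene that rose was Cdt1 (1.16), a licensing factor of replication origins. Kif11, a motor of the mitotic spindle, was at 111, 121 and 118 CPM in Ctrl, 17.5, 15.5 and 14.7 CPM in AireEEDdKO and 51.4, 76.3, 32.4 and 41.1 CPM in EEDcKO, so the groups followed each other in steps without overlap (against Ctrl -2.87 ± 0.35, adjusted p = 2.6e-06). Top2a, which untangles DNA, was at 325, 349 and 376 CPM in Ctrl, 70.7, 57.4 and 40.2 CPM in AireEEDdKO and 152, 187, 90.9 and 122 CPM in EEDcKO (-2.65 ± 0.31 against Ctrl, adjusted p = 1.9e-06). Ccnb1, the cyclin of mitotic entry, was at 25.5, 24.3 and 32.9 against 6.57, 3.87 and 2.07 CPM (-2.75 ± 0.38) and Nusap1 at 46.2, 49.7 and 55.8 against 11.3, 10.4 and 5.51 CPM (-2.48 ± 0.30, exon overlap with Oip5). EEDcKO against Ctrl had 10 lower (25.0%, background 6.22%) and 0 higher, and AireEEDdKO against EEDcKO 11 lower (27.5%, background 1.85%) and 0 higher. Against EEDcKO of 4 and 6 days 1 was lower (2.5%, background 0.916%). Within EEDcKO the older libraries had 2 lower (5.0%, background 1.05%). With age as a term 27 of the 40 were lower in AireEEDdKO than in Ctrl (67.5%, background 7.95%).

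Many genes of mitosis carry a promoter element known as CHR. Its letters TTTGAA were found, on either strand, in 17 of the 33 cell division promoters with an entry (51.5%; 82.5% of the 40 genes have one), against 17.9% of the whole table. Start regions of Top2a (chr11:99024140-99024439, minus strand; matches 179 and 23 bases before the start) and Kif11 (chr19:37376132-37376431, plus strand; match 19 bases before it) are shown as examples among the named genes (RefSeq, GRCm38.p6, matches in capitals).
Top2a: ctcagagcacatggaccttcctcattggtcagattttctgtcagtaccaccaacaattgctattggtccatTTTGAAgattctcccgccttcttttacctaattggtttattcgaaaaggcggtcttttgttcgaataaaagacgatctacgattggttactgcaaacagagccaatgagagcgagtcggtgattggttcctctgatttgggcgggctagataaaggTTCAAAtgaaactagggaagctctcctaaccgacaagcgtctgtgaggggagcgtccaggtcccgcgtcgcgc
Kif11: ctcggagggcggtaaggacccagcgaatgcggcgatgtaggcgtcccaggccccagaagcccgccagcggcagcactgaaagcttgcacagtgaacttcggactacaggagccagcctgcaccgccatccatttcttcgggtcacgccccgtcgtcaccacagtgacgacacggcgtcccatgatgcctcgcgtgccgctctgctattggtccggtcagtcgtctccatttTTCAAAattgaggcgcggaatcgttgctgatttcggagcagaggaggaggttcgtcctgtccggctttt

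**Figure D3:**
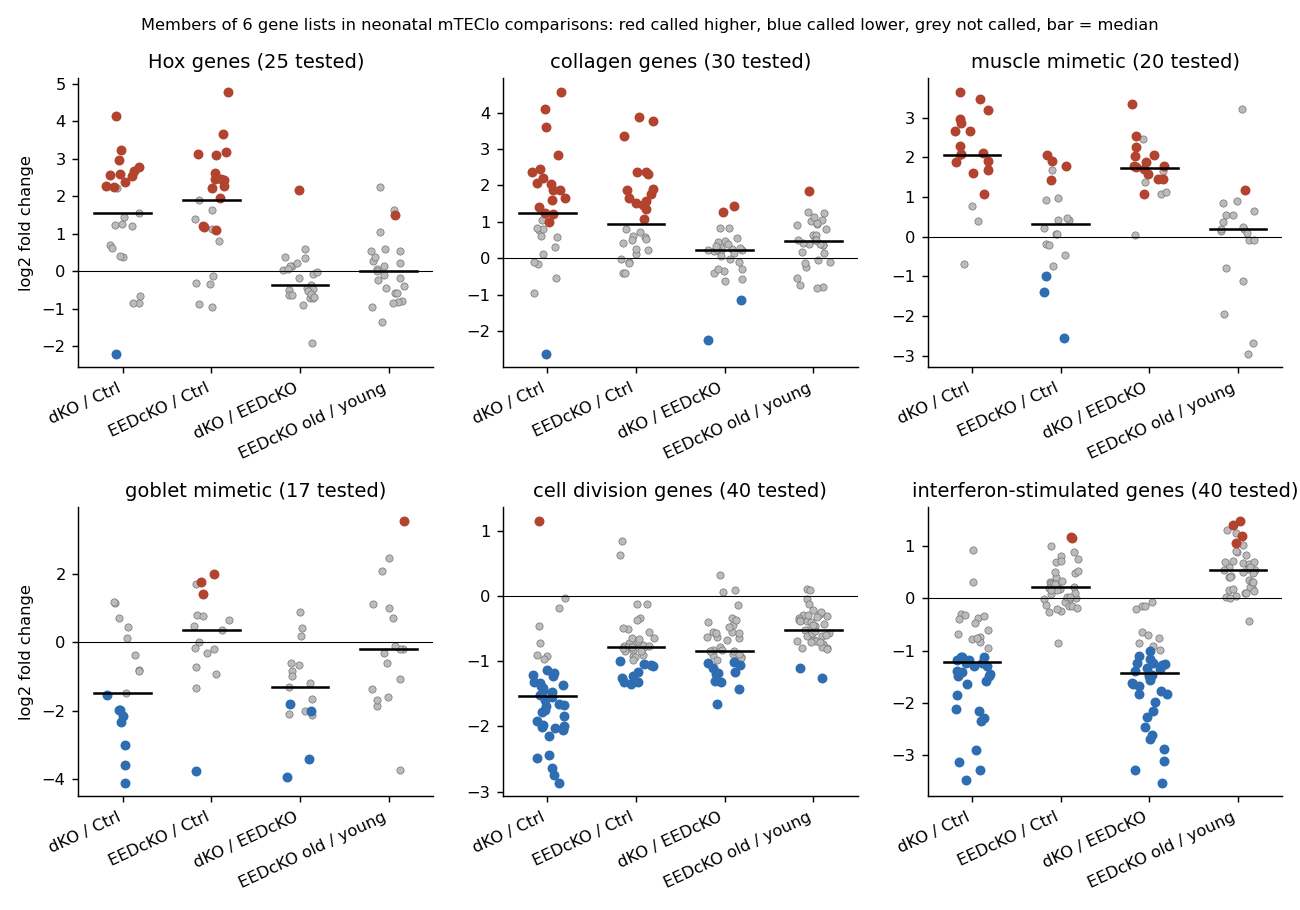
Log2 fold changes of the members of 6 lists (points; vertical axis) in AireEEDdKO against Ctrl, EEDcKO against Ctrl, AireEEDdKO against EEDcKO and, within EEDcKO, 4 and 6 days against 1 to 3 days; colored points were called. Interferon-stimulated and muscle genes move between AireEEDdKO and EEDcKO (medians -1.42 and 1.73), and the cell division medians lie below 0 in all 4 comparisons.

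Genes of cortical thymic epithelial cells (cTEC) fell, in a gate that excludes Ly51+ cells. Of 15 genes 9 were lower and 1 higher, with a median of -1.96 and summed levels of 3274 to 4927 CPM in Ctrl and 978.2 to 1330 CPM in AireEEDdKO. The shares were 60.0% lower and 6.67% higher, against 8.2% and 12.4% of all tested genes. Psmb11, the catalytic subunit of the thymoproteasome, was at 230.5, 189 and 369 CPM in Ctrl and 20.3, 15.3 and 14.7 CPM in AireEEDdKO (-3.97 ± 0.78, adjusted p = 3.6e-04). The EEDcKO libraries, at 52.4, 81.2, 5.71 and 4.00 CPM, split by age and by the form of the title, with the libraries of 6 and 4 days (replicates 3 and 4) far below those of 2~3 days and 1 day. Prss16, the thymus-specific serine protease, was at 566, 529 and 775 against 70.4, 67.6 and 54.2 CPM (-3.28 ± 0.55), and the chemokine Cxcl12 at 480.1, 464 and 660.1 against 38.8, 47.8 and 48.0 CPM (-3.57 ± 0.59). Older EEDcKO libraries differed from younger ones by -3.76 for Psmb11, -1.94 for Prss16 and -1.62 for Cxcl12 (adjusted p = 0.12) on the log2 scale. Of the 15 genes, 6 were lower in the older libraries and 0 higher (40.0% lower, against 1.05% of all tested genes, median -1.13). Within mTEChi of Ctrl, 6 days against 1 to 3 days gave 2 called genes (0.0099%). Without the 2-fold limit there were 3, and 2253 had an unadjusted p under 0.05 (edgeR). Of the cTEC list 0 were called there (median -0.30), but Cxcl12 was lower at 6 days, by -2.98 on the log2 scale (adjusted p = 0.069). Cxcl12 was at 14.5 and 10.9 CPM at 6 days and at 71.5, 144 and 86.4 CPM at 1 to 3 days, without overlap. EEDcKO of 1 to 3 days, which overlaps Ctrl in age, had 8 of the 15 lower than Ctrl and 1 higher (background 5.06% lower and 7.57% higher). Scx, a tendon transcription factor on this list, rose from 0, 2.78 and 0 to 23.5, 29.7 and 27.3 CPM (4.65 ± 0.58).

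Several mimetic lists held more genes lower than higher. Of 20 enterocyte genes 11 were lower and 0 higher (median -1.4). Lypd8, an antibacterial protein of gut epithelium, had 158 counts over the Ctrl libraries and 3 over the AireEEDdKO libraries, a ratio of rates of 85.8 (95% exact interval 28.8 to 420.0). It was at 26.8, 20.9 and 10.0 CPM in Ctrl and 0, 0.407 and 0.23 CPM in AireEEDdKO. Muc13 was at 20.4, 20.9 and 11.7 against 5.32, 9.16 and 2.30 CPM (-1.66 ± 0.53, no longer called without AireEEDdKO replicate 3). Apob, the apolipoprotein of chylomicrons, was at 125, 57.4 and 46.3 against 15.6, 32.0 and 1.38 CPM (-2.22 ± 0.75) and lost its call without Ctrl replicate 1, AireEEDdKO replicate 1 or AireEEDdKO replicate 3. EEDcKO had 12 of these genes lower than Ctrl, and AireEEDdKO had 2 higher and 0 lower than EEDcKO. The count was 6 when 10 counts were required in every library of a group.

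Of 18 keratinocyte genes 8 were lower and 1, Krtdap (1.01), higher (median -0.79). Krt77 was at 102, 79.0 and 69.2 CPM in Ctrl and 4.07, 3.66 and 14.9 CPM in AireEEDdKO (-3.44 ± 0.59, adjusted p = 1.0e-04) and Krt10, a keratin of the outer skin layers, at 35.8, 34.1 and 11.2 against 6.26, 7.74 and 5.74 CPM (-2.06 ± 0.38). The protease Klk7 was at 13.7, 19.5 and 10.0 against 5.63, 2.24 and 0.23 CPM (-2.53 ± 0.69), and Krt1 at 17.1, 20.9 and 10.0 against 5.94, 7.53 and 6.89 CPM (-1.25 ± 0.42), a call lost without Ctrl replicate 2 or AireEEDdKO replicate 1. In none of the 4 did the genotypes overlap. EEDcKO had 10 lower than Ctrl. With at least 10 counts required in every library of a group, 4 keratinocyte genes were lower in AireEEDdKO.

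Goblet genes, which encode secreted mucus, were lower in 8 of 17 cases and higher in 0 (median -1.48). Their summed level did not follow, at 1679, 1783 and 2180 CPM in Ctrl and 2439, 2387 and 1731 CPM in AireEEDdKO, with overlap. Called lower were 4 to 6 when a library was left out, with 4 without AireEEDdKO replicate 3. Here EEDcKO had 3 higher and 1 lower than Ctrl, and AireEEDdKO had 4 lower and 0 higher than EEDcKO. The airway mucin Muc5ac was at 169, 100.2 and 82.6 CPM in Ctrl, 3.44, 11.0 and 4.82 CPM in AireEEDdKO and 35.1, 18.5, 189 and 38.8 CPM in EEDcKO, with the 6-day EEDcKO library far above the others (-4.13 ± 0.73 against Ctrl, adjusted p = 1.3e-04). Muc5b was at 256, 146 and 484 CPM in Ctrl, 12.8, 161 and 19.1 CPM in AireEEDdKO and 1228, 1921, 516 and 359 CPM in EEDcKO. The second AireEEDdKO library overlapped Ctrl for Muc5b, and its call (-2.16 ± 0.70, adjusted p = 0.017) was lost with age as a term (adjusted p = 0.21) and without Ctrl replicate 3, AireEEDdKO replicate 1 or AireEEDdKO replicate 3. Muc4 was at 35.5, 36.5 and 63.1 against 2.82, 21.4 and 7.81 CPM (-1.99 ± 0.56), and its exons overlap Muc20. Muc2 was at 38.9, 24.7 and 18.4 against 3.13, 3.05 and 4.13 CPM (-3.0 ± 1.15), and its call was lost in 5 of the 6 fits that left out a library, all but that without Ctrl replicate 3.

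The remaining mimetic lists held few called genes. Called higher were 5.56% of endocrine, 16.7% of ciliated, 17.6% of tuft, 15.4% of microfold and 7.14% of ionocyte genes, against 12.4% of all tested genes. Called lower were 22.2%, 16.7%, 0%, 0% and 7.14% in the same order, against 8.2%. Of 18 endocrine genes 4 were lower, among them insulin Ins2 (-5.0) and somatostatin Sst (-4.91), and 1, Neurod1, was higher. Of 18 ciliated genes 3 were lower and 3 higher. The higher ones included Foxj1, the master factor of motile cilia, at 10.1, 12.5 and 14.5 CPM in Ctrl and 41.3, 29.1 and 25.7 CPM in AireEEDdKO (1.38 ± 0.35), and its companion Trp73. Of 17 tuft genes 3 were higher and 0 lower, with Dclk1, a tuft cell kinase, at 96.1, 107 and 72.0 against 260.3, 229 and 185 CPM (1.28 ± 0.24) and Ptgs1 at 11.4, 12.2 and 8.93 against 26.3, 25.2 and 24.6 CPM (1.21 ± 0.32). The tuft median of 0.15 was near that of all genes. Of 13 microfold genes 2 were higher and 0 lower, Sox8 (2.17 ± 0.45) and Tnfaip2 (1.07 ± 0.25, a call lost without Ctrl replicate 1 or AireEEDdKO replicate 2). Of 14 ionocyte genes 1 was higher and 1 lower, Slc4a9, an anion transporter at 15.1, 15.3 and 16.7 against 6.88, 9.16 and 5.05 CPM (-1.14 ± 0.39). The Slc4a9 call was lost with age as a term and without AireEEDdKO replicate 1 or 3, and with age as a term 5 ionocyte genes were higher.

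Of 20 mTEClo and basal epithelial genes 5 were higher (25.0%) and 0 lower, and 2 without Ctrl replicate 1 or with the title form as a term. Their summed level was 4003 to 4467 CPM in Ctrl and 4879 to 5514 CPM in AireEEDdKO. The basal keratin Krt14 was at 126, 181 and 174 CPM in Ctrl and 374, 308 and 340.1 CPM in AireEEDdKO (1.09 ± 0.25, adjusted p = 0.0013, not called with age as a term or without Ctrl replicate 1), and the integrin subunit Itgb4, its partner in hemidesmosomes, at 341, 389 and 387 against 769, 702 and 792 CPM (1.02 ± 0.12). Itgb4 stood at the 2-fold limit and fell below it in several fits, among them those without Ctrl replicate 1 and without AireEEDdKO replicate 3. Cldn3, a tight junction protein, was at 9.04, 11.5 and 7.81 against 36.3, 28.7 and 28.7 CPM (1.70 ± 0.36). Krt5 was at 306, 388 and 325 against 528, 447 and 473 CPM (0.51 ± 0.18, adjusted p = 0.033), under the 2-fold limit. The chemokine Ccl21a was at 17.4, 21.2 and 21.8 against 21, 16.7 and 17.7 CPM and Foxn1, the master factor of thymic epithelium, at 202, 178 and 276 against 242, 186 and 156 CPM, and the genotypes overlapped in both (-0.13 ± 0.19 and -0.17 ± 0.21, adjusted p = 0.62 and 0.56).

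Of 19 genes of mature medullary cells 1 was higher (5.26%, against 12.4% of all tested genes) and 0 lower. The higher gene was Fezf2, a transcription factor that drives tissue antigens apart from Aire. It was at 82.1, 87.3 and 63.6 CPM in Ctrl, 234, 188 and 124 CPM in AireEEDdKO and 31.7, 65.6, 156 and 90.6 CPM in EEDcKO (1.22 ± 0.35 against Ctrl, adjusted p = 0.0087), and it fell below the 2-fold limit with age as a term (0.87). Cd80, the costimulatory ligand of mature cells, was at 73.4, 71.0 and 51.3 CPM in Ctrl and 98.9, 77.2 and 23 CPM in AireEEDdKO (0.00 ± 0.37, adjusted p = 0.99), and AireEEDdKO replicate 3 stood below all others. Of 12 genes of MHC class II presentation 2 were higher and 0 lower (16.7% higher, against 12.4% of all tested genes). H2-Oa was at 16.1, 14.6 and 21.8 against 74.8, 56.8 and 26.6 CPM (1.61 ± 0.40). H2-Ob, with which it forms a peptide-loading modulator, was at 18.8, 19.5 and 18.4 against 70.7, 56.8 and 13.1 CPM (1.30 ± 0.40). H2-Ob overlapped between genotypes through the third AireEEDdKO library, and its call was lost with age as a term and without Ctrl replicate 1 or 2 or AireEEDdKO replicate 1 or 2. The classical chain H2-Aa was at 503, 493 and 575 against 482, 364 and 326 CPM (-0.42 ± 0.27, adjusted p = 0.22).

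Markers of other cells that a thymus sort could carry were read beside these results. Of 15 thymocyte markers 2 were higher and 1 lower (13.3% and 6.67%, against 12.4% and 8.2% of all tested genes). Their summed level was 131.7 to 193.8 CPM in Ctrl and 256.9 to 383.3 CPM in AireEEDdKO, without overlap. The higher were Bcl11b, a T-lineage factor at 42.9, 38.6 and 32.4 against 121, 107 and 133 CPM (1.65 ± 0.30), and Cd5, at 11.4, 11.8 and 10.0 against 29.4, 14.7 and 26.9 CPM and lost without Ctrl replicate 3 or AireEEDdKO replicate 1 or 3, while Cd3e stayed at or below 5.05 CPM. Of 19 myeloid and B cell markers 5 were lower and 1, Cd79b (1.07 ± 0.35, lost without Ctrl replicate 1, Ctrl replicate 3 or AireEEDdKO replicate 1), was higher. The macrophage gene Adgre1 was at 18.8, 12.5 and 6.70 CPM in Ctrl and 0.313, 1.43 and 0 CPM in AireEEDdKO (-4.28 ± 0.67), the mannose receptor Mrc1 at 42.2, 39 and 20.1 against 11.9, 7.94 and 2.98 CPM (-2.21 ± 0.41) and Cybb, an oxidase subunit of phagocytes, at 53.6, 32.0 and 24 against 12.8, 2.04 and 2.07 CPM (-2.85 ± 0.56). The summed list was at 176.3 to 314.2 CPM in Ctrl and 83.3 to 276.6 CPM in AireEEDdKO. Of 11 endothelium markers 2 were higher and 2 lower (18.2% each way). Pecam1 was at 18.4, 15.7 and 13.4 against 5.63, 3.66 and 5.05 CPM (-1.75 ± 0.33) and Erg at 5.70, 5.22 and 2.79 against 23.5, 14.0 and 7.81 CPM (1.64 ± 0.42), and the defining Cdh5 was at 0.558 to 1.34 CPM in Ctrl and at 0 in all AireEEDdKO libraries. Of 4 erythroid markers 1 was higher and 1 lower, and of 9 neural crest and glia markers 0 were higher and 1, Gfap (-1.33), lower, with a median of 0.56 and a summed level of 136.2 to 198.3 CPM in Ctrl and 251.9 to 268.4 CPM in AireEEDdKO, without overlap. The part of such cells in the comparison was not tested.

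The largest changes by the naming rule included genes of no list. Among the rises, Lrrc32, which tethers latent TGF-beta, was at 2.35, 2.78 and 1.67 CPM in Ctrl and 36.6, 49.9 and 54.0 CPM in AireEEDdKO (4.31 ± 0.48, adjusted p = 7.8e-07). The cannabinoid receptor Cnr1 was at 3.35, 2.09 and 2.79 against 78.2, 32.2 and 78.1 CPM (4.49 ± 0.50) and the neuronal ubiquitin hydrolase Uchl1 at 1.34, 0.696 and 2.23 against 27.2, 30.1 and 16.3 CPM (4.17 ± 0.54). All 3 also rose in EEDcKO against Ctrl, by 2.78, 2.96 and 3.01. Chst5, a sulfotransferase, was at 0.67, 1.39 and 2.23 against 14.1, 19.3 and 24.8 CPM (3.83 ± 0.56). Among the falls, Pkhd1l1 was at 457, 404 and 532 against 16.6, 16.9 and 3.90 CPM (-5.23 ± 0.70, adjusted p = 7.3e-06), and it was also -3.67 on the log2 scale in older against younger EEDcKO libraries. Cilp, a cartilage matrix protein, was at 89.1, 65.4 and 38.5 against 1.25, 3.05 and 0.918 CPM (-5.13 ± 0.74), and Tmem169 at 49.2, 40.4 and 37.4 against 1.56, 3.05 and 2.07 CPM (-4.19 ± 0.60). The T-cell adaptor gene Grap2 was at 76.0, 56.0 and 62.5 against 4.07, 3.66 and 6.2 CPM (-3.79 ± 0.55), and Sptssb, of sphingolipid synthesis, at 33.5, 34.1 and 47.4 against 0.939, 3.05 and 1.84 CPM (-4.20 ± 0.56). Cfap65, Adra2c, Fer1l6 and Gm11290 fell, with log2 fold changes of -4.13, -4.06, -3.87 and -3.79.

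Among genes called higher, 13 had 0 counts in all 3 Ctrl libraries, and for these a fold change is a lower bound against 3 counts over the group (0.392 CPM). Gm37644, a gene model on chromosome 1 with no assigned class, had 16, 60 and 40 counts in the AireEEDdKO libraries (at least 22.5-fold higher) and was present in EEDcKO as well, at 10.0, 8.2, 10.4 and 12.5 CPM. Gm9855, a processed pseudogene on chromosome 10 that may share reads with its parent gene, had 16, 29 and 22 counts (at least 13.6-fold) and 0 in all 4 EEDcKO libraries. Mrps34, a mitochondrial ribosome gene with exon overlap with Mapk8ip3 and Nme3, had 16, 20 and 18 counts (at least 11.2-fold). Its EEDcKO libraries held 0 and 2 counts at 1 to 3 days and 21 and 14 counts at 6 and 4 days (log2 fold change 3.38, adjusted p = 0.036), and with the title form as a term its call was lost (adjusted p = 0.26). Nxph4, a neurexin ligand, had 19, 9 and 17 counts (at least 9.93-fold). Fam229a had 11, 13 and 8 counts (at least 6.74-fold). Rtl3 had 2, 3 and 23 counts, mostly in 1 library, and lost its call without AireEEDdKO replicate 3.

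The smallest p-values between AireEEDdKO and EEDcKO show what differed when EED was missing in both. Reln, a secreted guidance protein, was at 19, 29.9, 24.5 and 11.0 CPM in EEDcKO, 193, 157 and 68.9 CPM in AireEEDdKO and 84.1, 72.0 and 48.5 CPM in Ctrl (2.73 ± 0.30 against EEDcKO, adjusted p = 3.0e-05). It was thus low in EEDcKO against Ctrl (-1.72), and its call in AireEEDdKO against Ctrl (1.01 ± 0.31) lay at the 2-fold limit and was lost in 12 of 18 alternative fits. Adam19, a metalloprotease, was at 105, 102, 161 and 102 CPM in EEDcKO and 398, 299 and 237 CPM in AireEEDdKO (1.4 ± 0.18), and Myb, a factor of proliferating progenitors, at 33.4, 38.8, 41.0 and 37.3 against 106, 87.3 and 79.2 CPM (1.26 ± 0.15). In all 3 genes each AireEEDdKO library stood above each EEDcKO library. Adam19 was called against Ctrl too (1.13 ± 0.19), but not with age as a term or without AireEEDdKO replicate 1.

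Genes that depend on Aire in mature cells were then followed into the low gate. The adult set holds 3337 tested genes that were lower in adult mTEChi of AireKO than of WT. Of these, 744 were lower (22.3%) and 505 higher (15.1%) in AireEEDdKO than in Ctrl mTEClo, against 8.2% and 12.4% of all tested genes, with a median of -0.34. Set from neonatal mTEChi of AireKO against Ctrl instead, the 2593 genes lower there (12.8%, with 3.56% higher) gave 646 lower (24.9%) and 420 higher (16.2%), and the 1917 genes of both sets gave 541 lower (28.2%) and 283 higher (14.8%) with a median of -0.61. EEDcKO against Ctrl had 401 of the adult set lower (12%) and 529 higher (15.9%), against 6.22% and 9.51% of all tested genes. AireEEDdKO against EEDcKO had 244 lower (7.31%) and 75 higher (2.25%), against 1.85% and 3.45%. In mTEChi 1371 of the adult set were lower (41.1%) and 165 higher (4.94%) in AireEEDdKO, against 9.94% and 6.88%. The 4 adult AireKO mTEChi libraries hold 0 mitochondrial counts and the 7 adult WT libraries 8184 to 9521 each, so the kind of library and the genotype cannot be told apart in how the adult set was drawn.

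The response of mTEClo was set against that of mTEChi by a test of the difference of the AireEEDdKO effects. In mTEChi 3396 genes were called (16.8%), 1389 higher (6.88%) and 2007 lower (9.94%). The effects differed by at least 2-fold in 1307 genes (6.47%), with 899 more positive in mTEClo (4.45%) and 408 more negative (2.02%). With library size alone as the scaling these were 1102 and 227, and the median over all genes shifted by 0.147 in log2. Trp73, a p63 relative of ciliated cells, was at 14.4, 10.1 and 12.8 CPM in Ctrl and 47.2, 32.0 and 36.0 CPM in AireEEDdKO in mTEClo (1.62 ± 0.22), and in mTEChi at 12.8, 16.0, 13.9, 16.8 and 15.1 CPM in Ctrl and 1.17, 2.86 and 2.55 CPM in AireEEDdKO (-2.71 ± 0.29). The gene moved in opposite directions without overlap in either gate, and the difference was 4.33 ± 0.36 (adjusted p = 4.9e-07). Col6a3 moved likewise, at 1.65 ± 0.43 in mTEClo and -3.95 ± 0.50 in mTEChi (difference adjusted p = 5.0e-05), and the zinc finger gene Prdm16 rose in mTEClo (1.82 ± 0.20) with -0.96 ± 0.20 in mTEChi. Ptpru, a receptor phosphatase, was at 16.8, 18.8 and 13.4 against 99.5, 123 and 116 CPM in mTEClo (2.77 ± 0.21) and had a log2 difference of 0.15 ± 0.19 in mTEChi.

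Genes more negative in mTEClo included Pds5b, a cohesin regulator, at 676, 567 and 826 CPM in Ctrl and 107, 92.2 and 90.7 CPM in AireEEDdKO (-2.83 ± 0.23 in mTEClo, -0.45 ± 0.20 in mTEChi), the kinase gene Camk4 (-1.84 ± 0.16 and 0.01 ± 0.15) and the ethanolamine kinase gene Etnk1 (-1.31 ± 0.13 and 0.00 ± 0.11). Creb3l2, a factor of the secretory pathway, gave 0.16 ± 0.16 in mTEClo and rose by 1.73 ± 0.14 in mTEChi. By list, the difference was more positive in mTEClo for 25 of 97 developmental transcription factors, 7 of 25 Hox genes and 11 of 30 collagen genes, and more negative for 0 of each. Developmental factors had 25 higher and 15 lower in mTEChi, collagen genes 5 higher and 7 lower, and Hox genes 4 higher and 5 lower. The cell division genes (26 of 40 lower in mTEChi) and interferon-stimulated genes differed between the gates in 0 and 1 members. The ages of the mTEChi Ctrl libraries, 1 to 6 days, span those of AireEEDdKO, unlike in mTEClo. All mTEChi libraries also carry a bracketed name in their title. Age and the set of libraries therefore cannot be told apart from the gate in this difference.

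**Figure D4:**
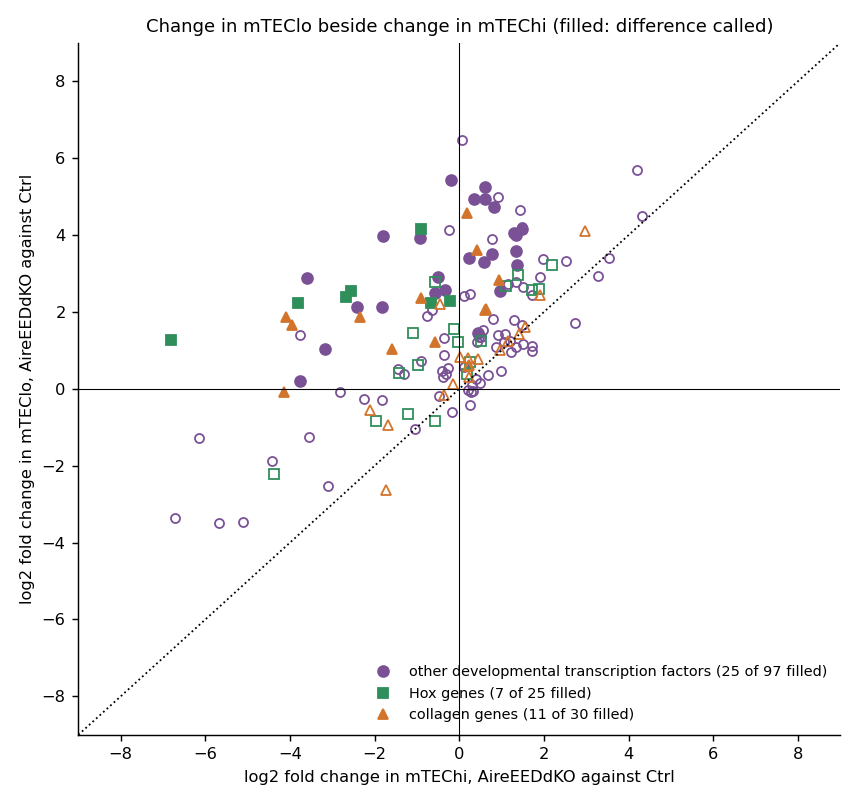
Log2 fold change of AireEEDdKO against Ctrl in mTEChi (horizontal axis) and mTEClo (vertical axis) for 97 developmental transcription factors, 25 Hox genes and 30 collagen genes; filled points are genes whose effect differed between the gates (25, 7 and 11), and the dotted line marks equal change. All filled points lie above the line.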

How the data were processed

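Bulk RNA was measured from sorted thymic epithelial cells. The authors deposited whole-number counts per gene, which were the values used, along with normalized tables that were not used. Per the labels and the study's methods, reads were trimmed with fastp 0.20.0, and to a fixed length where needed, mapped to mm10 with STAR 2.7.3a, filtered at mapping quality 5 with SAMtools 1.9, freed of duplicates with Picard 2.21.1 and counted with HTSeq 0.11.2 regardless of strand (versions from the submitters' processing notes). The Ensembl release was not given in the sources used here. Removal of duplicates without molecular identifiers caps the counts of abundant genes.

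Symbols and positions were taken from GENCODE M21 (GRCm38), which names 99.6% of the 55471 gene identifiers. Of these, 44971 had a count and 20196 passed filterByExpr by group. Counts were scaled by TMM and tested with edgeR 4.0.16 (limma 3.58.1, R 4.3.3), using the quasi-likelihood F-test over all 24 neonatal libraries in 7 groups, which share 1 estimate of spread (biological coefficient of variation 19.8%). P-values were adjusted by Benjamini-Hochberg over all tested genes. Calls required an adjusted p under 0.05 with a change of at least 2-fold. Fold changes are fitted with a prior count of 0.125, and SE is the absolute log2 fold change divided by the square root of F. The labels do not say that libraries came from separate animals, so p-values measure the spread between these libraries. A value of 0 allows up to 3 counts (95% limit), and such limits and count intervals cover counting error only. The fits were tested on simulated data.

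Named genes were 14 fixed genes, the 12 largest rises and 12 largest falls among called genes (protein coding or long noncoding RNA, no overlap of the 6 libraries, a higher group mean of 10 CPM or more and over 3 counts on average in the lower group), the 6 most abundant genes with 0 counts in Ctrl, up to 4 called members per list of 10 CPM or more, and the 4 smallest p-values in each direction in the comparisons with mTEChi and with EEDcKO. Results for 4 genes are not reported here. The members and lists were chosen with earlier results of these data known. Lists are described by counts and medians beside those of all tested genes, without a set test. A planned summary of CpG content in promoters was void, since 66.9% of tested genes have an entry in the RefSeq promoter table (GRCm38.p6). Alternatives covered scaling (RLE size factors, library size alone), filters, prior count, DESeq2 1.42.0, age, sex and replicate terms, the form of the title as a term (added after seeing the data), fewer groups and leaving out each library.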

Additional observations from a re-analysis of the deposited data

Results flagged for a closer look

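The AireEEDdKO effect differed between mTEClo and mTEChi in 1307 genes by the test of the difference itself. In mTEClo, age and the form of the title go with genotype. In mTEChi the ages of Ctrl and AireEEDdKO overlap, and every library carries a bracketed name. Gate, age and set of libraries therefore cannot be told apart in this difference. With the title form as a term it held 648 genes. Of the named genes, 26 had a more positive and 8 a more negative effect in mTEClo, given here as log2 effect in mTEClo minus that in mTEChi. Some were named for the smallest p-values in this test and many for a large change in mTEClo. These 2 counts therefore do not measure how often the gates differ. Over all tested genes the shares were 4.45% more positive and 2.02% more negative. Developmental regulators were Osr2 (5.64), Gata6 (3.92), Ebf3 (3.18), Scx (3.11), Prdm16 (2.78), Pax3 (2.74) and Trp73 (4.33). Collagen, matrix and mesenchyme genes were Col6a3 (5.60), Col3a1 (4.39), Pdgfra (3.94), Loxl1 (3.62), Col7a1 (3.19), Col5a2 (1.91) and Col17a1 (1.44). The other genes with a more positive effect were Nxph4 (8.2), Gm37644 (6.93), Lrrc32 (3.78), Chst5 (2.99), Igf2 (2.94), Ptpru (2.62), Epop (2.24), Ptgs1 (2.21), Cdkn2a (2.06), Dlk1 (1.94), Cdkn2b (1.60) and Tnfaip2 (1.57). Effects were more negative in mTEClo for Pkhd1l1 (-3.09), Sptssb (-2.92), Grap2 (-2.69), Pds5b (-2.39), Camk4 (-1.85), Mrc1 (-1.72), Creb3l2 (-1.57) and Etnk1 (-1.32). Values of Nxph4, Gm37644 and Osr2 depend on the prior count, since Ctrl mTEClo held 0 to 2 counts of them.

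In 5 genes 1 of the 4 EEDcKO mTEClo libraries lay far from the other 3, by Dixon's criterion, which chance meets in about 1 of 20 groups. The library of 6 days (replicate 3) was high for Muc5ac (189 CPM), Muc2 (31.1 CPM) and Adam19 (161 CPM). The library of 2~3 days (replicate 1) was high for Pecam1 (13.0 CPM) and that of 4 days (replicate 4) for Neurod1 (29.0 CPM). The criterion was applied to EEDcKO levels of 120 named genes.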

How the results depend on the processing

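The count of genes called between AireEEDdKO and Ctrl mTEClo was 3416 to 4462 under other scalings, filters, prior counts, age and sex terms, fewer groups and DESeq2, and 3553 to 4034 with a library left out. Without the 2-fold minimum it was 7816. With the form of the title as a term, an alternative added after seeing the data, it was 1787, and the counts were 648 for the difference between mTEClo and mTEChi and 433 against EEDcKO. The count for the difference between mTEClo and mTEChi was 1980 without that minimum and 878 to 1287 with a library left out. Against EEDcKO the count was 1619 without the minimum, 309 with only the mTEClo groups and 40 with only the groups compared, where the spread is estimated from fewer libraries, and 377 to 1507 with a library left out. The age comparison within mTEChi of Ctrl gave 1 gene with only the mTEChi groups. Leaving out a library kept at least 2 in each group.

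AireEEDdKO and Ctrl replicates share numbers. Same-numbered libraries deviated together weakly (correlations of deviations 0.15, 0.0554 and 0.168 for pairs 1, 2 and 3). These lay above the values of differently numbered libraries, -0.16 to 0.0369. The labels do not say that the numbers mark a litter or a sort, so they were not taken as a pairing. With the replicate number as a block, 4068 genes were called against Ctrl, 1008 against EEDcKO and 862 for the difference between gates. Across the gates the Ctrl numbers do not match in labelled age. Replicates 1, 2 and 3 of mTEClo Ctrl share age and sex labels with replicates 3, 4 and 5 of mTEChi Ctrl. Replicates 1 and 2 of mTEChi Ctrl came from males of 6 days. The 862 thus does not rest on blocks of matched age, and a pairing by age and sex was not tested.

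Of 123 genes met by the naming rule over 18 settings, 2094 values kept their side of the threshold and 109 lost the call. A further 3 called genes changed sign, with the title term (Fezf2 -0.13, Slc4a9 0.46 and Erg -0.11). Sign changes were counted only where a gene was called in the reported or the alternative fit. Cd80, called in neither, went from 0.00 to -0.23 with age as a term. Of 504 medians of 28 lists, 38 in 8 lists had another sign than the reported one, 7 of them by more than 1 SD of the AireEEDdKO libraries, and the cause was not tested. These 7 were erythroid markers with at least 10 counts per library of a group (0.30), MHC class II genes (-0.13) and endothelium markers (-0.024) with age as a term, endothelium markers (-0.11) and tuft genes (-0.42) with the title term, and tuft genes, at -0.32 to 0.48 with a library left out and below 0 without Ctrl replicate 1 (-0.036) or AireEEDdKO replicate 1 (-0.32). The other lists with a change of sign were mature medullary, thymocyte, endocrine and microfold genes.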

Other observations

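Of 16099 tested protein-coding genes 2156 were called higher (13.4%) and 1293 lower (8.03%) in AireEEDdKO than in Ctrl mTEClo, near the 12.4% and 8.2% of all tested genes. Of 653 tested long intergenic noncoding RNAs 69 were higher (10.6%) and 64 lower (9.8%), and of 862 antisense genes, whose reads cannot be told apart from those of the partner gene without strand, 88 were higher (10.2%) and 63 lower (7.31%).

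The processed pseudogene Gm9855 on chromosome 10 was higher where Aire was missing, in mTEChi as in mTEClo. In mTEChi it was at 2.72, 2.05 and 3.92 CPM in AireKO and 5.25, 3.44 and 2.86 CPM in AireEEDdKO, and at 0 to 0.464 CPM in the 5 Ctrl and 0 to 0.217 CPM in the 3 EEDcKO libraries, without overlap (log2 fold change of AireKO against Ctrl 3.73 ± 0.64, SE, adjusted p = 4.0e-04). In mTEClo it had no count in the Ctrl and EEDcKO libraries, and its call there was lost with the form of the title as a term. Against the EEDcKO libraries of 4 and 6 days, which share the title form, it was called (log2 fold change 7.02, adjusted p = 3.6e-04, edgeR quasi-likelihood F-test). That value depends on the prior count. Aire lies on the same chromosome, from position 78030022 against 42054113 for Gm9855, and whether this has a part was not tested. It was singled out after its values were seen, and reads shared with a related gene were not tested.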
